A study of Mus musculus with 20 samples.

Results

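Tumours grown from POLE-mutant CT26 cells were compared after treatment with an antibody against PD-1 and after PBS, in 5 tumours each of 20 in the series. CT26 cells come from a chemically induced colon carcinoma of a BALB/c mouse. POLE copies DNA as the catalytic part of polymerase epsilon, and its proofreading mutants are known for high mutation loads. The members are the 5 libraries labelled POLE-mutant with anti-PD-1 and the 5 labelled POLE-mutant with PBS, which is the carrier solution. The other 10 tumours came from CT26 cells with the empty vector, 5 with each treatment, and entered the fit to help estimate the spread. CHEK2, a checkpoint kinase of the DNA damage response, stands in the title of the series, but POLE stands in every sample's labels and in the design, so the tumours are called mutant here. The design text gives 5 mice per group. The change made in POLE, the number of clones, the antibody dose, the site of implantation and the day of sampling are not given in these labels. Tumours are numbered 1 to 5 within a group in deposition order, and the number pairs nothing.

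PD-1 is an inhibitory receptor that activated T cells put on their surface. When its ligands, PD-L1 and PD-L2, bind it, signalling from the T cell receptor is damped, and a blocking antibody lifts that restraint. Activated CD8 T cells and NK cells kill targets with perforin and granzymes and release interferon gamma, which acts on tumour cells, macrophages and vessels and induces chemokines, GTPases that defend the cell interior, and the machinery of antigen presentation. CT26 tumours are known to hold many macrophages and to respond in part to this antibody. A bulk tumour sample mixes cancer cells with all of these, so fewer cells of a type and less RNA per cell cannot be told apart anywhere below.

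Values are FPKM, a fragment count scaled by transcript length and library size, and the depth behind them is unknown. Total FPKM per library ran from 344449 to 369507 in the PBS tumours and from 328740 to 355819 in the anti-PD-1 tumours. The mitochondrial share of FPKM was 9.45% ± 1.06 (SD, n = 5) with PBS and 7.88% ± 0.751 with anti-PD-1, without overlap (exact two-sided permutation p = 0.00794, the smallest that 5 against 5 allows, and 0.0397 after Benjamini-Hochberg adjustment over 5 library measures). By the same test total FPKM, genes at 1 FPKM or more and mean Spearman correlation with the other libraries differed too (adjusted p = 0.0496 each). The small RNA share did not (adjusted permutation p = 0.746). Of the labelled tissue, colon markers were scarce: Cdx2, Vil1 and Muc2 reached at most 0.104 FPKM, and the epithelial genes Epcam and Cdh1 at most 0.575 FPKM in the 10 tumours. Krt20, a keratin of intestinal epithelium, was present throughout, at 58.5, 82.1, 53.7, 63.6 and 93.6 FPKM in PBS tumours 1 to 5 and at 4.16, 41.2, 80.7, 57.7 and 64.7 FPKM in anti-PD-1 tumours 1 to 5. It was thus low in anti-PD-1 tumour 1 and in the PBS range or near it in the others (log2 difference -1.14 ± 0.55 SE, limma adjusted p = 0.125).

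Pole and Chek2 were checked next. Pole was at 4.14, 4.63, 5.27, 6.35 and 5.73 FPKM with PBS and at 1.3, 3.4, 4.75, 4.52 and 5.71 FPKM with anti-PD-1. The groups overlapped, and the fitted difference was -0.52 ± 0.18 on the log2 scale (limma adjusted p = 0.0399). That call was lost in 14 of 27 alternative fits, among them those without PBS tumour 1, 2, 3 or 4. Chek2 was at 4.62, 6.47, 6.16, 6.58 and 8.38 FPKM with PBS and at 3.33, 4.72, 5.65, 4.57 and 6.88 FPKM with anti-PD-1 (log2 difference -0.39 ± 0.13, limma adjusted p = 0.034). Its call was lost in 12 of the 27 alternative fits. Neither gene's level checks the label, since a mutated or added copy cannot be told from the mouse gene in a gene-level value.

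Libraries that stand apart bear on many results. Anti-PD-1 tumours 1 and 2 had the lowest mean Spearman correlations with the other libraries among the mutant tumours, 0.874 and 0.889, against 0.906 to 0.913 in the PBS tumours. They also held the most stroma: Col1a1, a chain of type I collagen, was at 7.97, 28.2, 74.4, 33.1 and 24.8 FPKM with PBS and at 600, 390, 66.4, 84 and 56.1 FPKM with anti-PD-1. PBS tumour 3 had the highest T cell and MHC class II levels of its group and much skeletal muscle, with Acta1 (muscle actin) at 259 FPKM against 0.145, 55.4, 0.239 and 0.778 FPKM in the other PBS tumours and 64, 364, 86.9, 111 and 31.6 FPKM in the anti-PD-1 tumours. Animal identifiers come in 2 styles in the titles, M with a number or a number alone, with no word on what they mark. PBS tumours 1, 2 and 3 and anti-PD-1 tumours 1 and 2 carry the M style, so the anti-PD-1 tumours that stand apart are also those of that style. The fit holds a term for it. For many lists whose count moved, other counts are given with the list. They are those within the M style, without anti-PD-1 tumours 1 and 2, or with the mean muscle level as a covariate (the muscle covariate). Fits on fewer libraries also detect less, so a lower count alone does not mean a smaller change.

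Of 13982 genes tested, 4271 (30.5%) differed at an adjusted p under 0.05: 2226 rose (15.9%) and 2045 fell (14.6%). Rises were the larger changes. At least 2-fold rises numbered 1288 and at least 2-fold falls 249, and at least 4-fold changes 286 and 19. The median log2 change was 1.12 over the rises and -0.592 over the falls, and the median over all tested genes was -0.103. All 5 anti-PD-1 tumours lay above all 5 PBS tumours for 1557 genes (11.1%) and below for 1654 (11.8%). Under quantile normalization 2277 genes rose and 3275 fell, so rises made up 41.0% of calls in place of 52.1%. Without anti-PD-1 tumours 1 and 2, 1068 genes rose and 291 fell, and with anti-PD-1 tumour 1 alone left out, 1728 rose and 1026 fell. Within the M style 1819 rose and 1307 fell, and within the number style 2366 rose and 1951 fell. The filter asked for 1 FPKM in 5 of the 20 libraries, and 514 of the 2226 genes that rose met it only because the mutant anti-PD-1 tumours did. For such genes the count of rises follows in part from the filter.

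**Figure D1:**
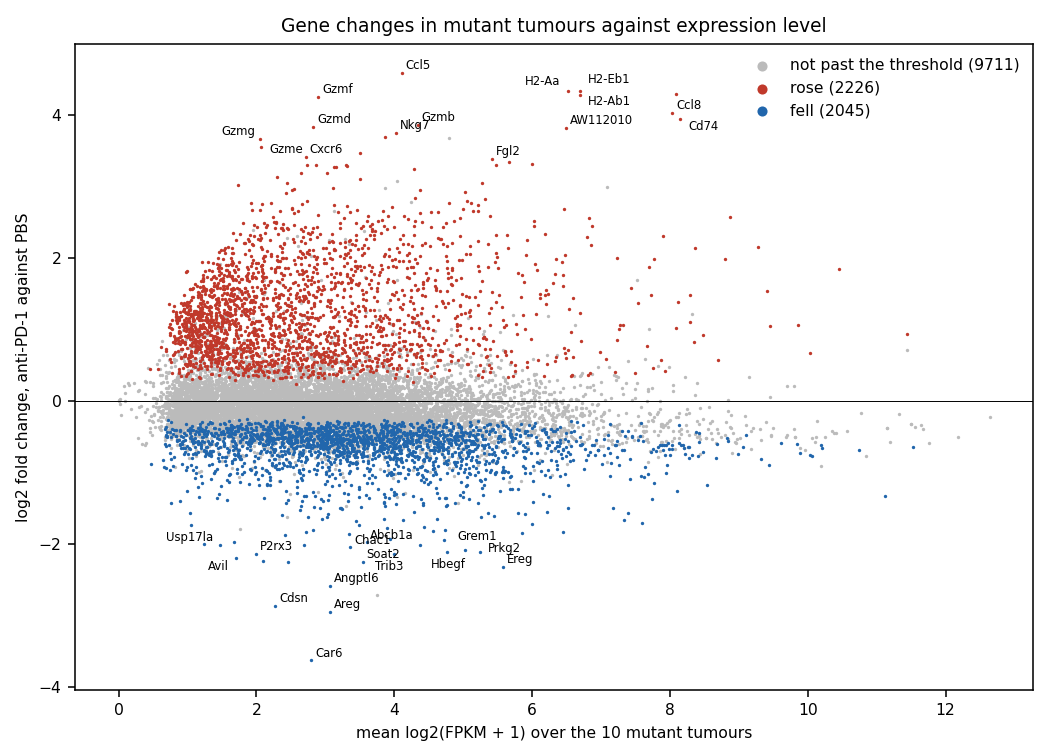
Log2 fold change (anti-PD-1 against PBS) of each of 13982 genes against its mean log2(FPKM + 1) over the 10 mutant tumours, coloured by limma call; the 15 largest rises and 15 largest falls are named. The 2226 rises reach higher than the 2045 falls reach down, from Ccl5 at 4.59 to Car6 at -3.63.

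T cell genes were among the strongest rises. Cd8a, a chain of the CD8 coreceptor of killer T cells, was at 0.636, 1.81, 7.12, 0.145 and 0.0879 FPKM in PBS tumours 1 to 5 and at 14.9, 12.8, 16.5, 14.3 and 16 FPKM in anti-PD-1 tumours 1 to 5. The anti-PD-1 tumours sat close together and all above PBS tumour 3, the highest of its group (log2 change 2.97 ± 0.37, adjusted p = 2.12e-05). Of 20 genes of the T cell receptor complex and its coreceptors, 17 were tested and 17 rose, with a median log2 change of 2.34. However, 12 of the 17 passed the filter only through the anti-PD-1 tumours. Their summed level was 11.7 to 109 FPKM with PBS and 208 to 399 FPKM with anti-PD-1. The rises with the smallest p were Zap70, the kinase that starts receptor signalling (2.12 ± 0.18), the costimulatory receptor Cd28 (1.72 ± 0.15) and the CD3 chain Cd3d (2.75 ± 0.25). All 3 kept that call under each of the 26 or 27 alternatives that tested them. Cd4, the coreceptor of helper T cells, rose by 1.53 ± 0.24 (adjusted p = 0.000147) and was lowest in anti-PD-1 tumour 3, at 0.99 FPKM, under the 1.13 FPKM of PBS tumour 3.

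Cytotoxic effectors moved with them. The tested effectors, 17 in number, all rose (median 2.66), and 3 of these passed the filter only through the anti-PD-1 tumours. Gzmb, the granzyme that sets off cell death in the target, was at 1.03, 4.97, 26, 5.82 and 1.44 FPKM with PBS and at 130, 65.1, 57.4, 65.6 and 63.8 FPKM with anti-PD-1 (3.87 ± 0.60, adjusted p = 0.000128). Anti-PD-1 tumour 1 was the highest, and the groups did not overlap. Ccl5, a chemokine that effector T cells and NK cells secrete, had the largest rise of the named genes: from 1.2, 1.71, 21.7, 1.4 and 1.3 FPKM to 144, 101, 64.1, 73.1 and 42.7 FPKM (4.59 ± 0.44, adjusted p = 4.82e-06). Pore-forming perforin (Prf1) rose by 3.30 ± 0.50, and Nkg7, a protein of cytotoxic granules, by 3.76 ± 0.42. A cluster of granzymes found in strongly activated mouse killer cells, Gzmd (3.84 ± 0.75), Gzme (3.56 ± 0.68), Gzmf (4.26 ± 0.84) and Gzmg (3.67 ± 0.88), rose from near or under 1 FPKM to means between 16.7 and 39.8 FPKM. These near-identical genes can share reads, so their separate values are uncertain.

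Inhibitory receptors and ligands rose as a group. Of 19 tested, 16 rose, 1 fell and 2 did not pass the threshold, and 8 passed the filter only through the anti-PD-1 tumours. Pdcd1, which encodes PD-1 itself, was at 0.832, 1.52, 6.36, 0.298 and 0.102 FPKM with PBS and at 14.9, 17.6, 26.6, 19.8 and 19.6 FPKM with anti-PD-1 (3.30 ± 0.35, adjusted p = 8.87e-06). The spread of the treated tumours was narrow and clear of the PBS tumours. The ligand PD-L1 (Cd274), named for its role and after its values were seen, was at 10.1, 12.7, 32.2, 22.1 and 7.86 FPKM with PBS and at 71.6, 69.9, 72.2, 79.6 and 66.9 FPKM with anti-PD-1 (2.17 ± 0.43, adjusted p = 0.00109). Lag3 (2.51 ± 0.26), Havcr2, which encodes TIM-3 (2.19 ± 0.23), and Cd96 (1.94 ± 0.19), further receptors of activated or exhausted T cells, rose too. Pvr, a ligand shared by CD96 and TIGIT, fell by 1.06 on the log2 scale (SE 0.29, adjusted p = 0.011).

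Among costimulatory genes 9 of 12 rose, led by Slamf7 (2.49 ± 0.24), Cd27 (2.25 ± 0.23) and Icos (2.08 ± 0.21), receptors that strengthen T cell activation. Cd80, a ligand of CD28 on antigen-presenting cells, fell by 0.61 on the log2 scale (SE 0.14, adjusted p = 0.0033) and its groups did not overlap. Transcription factors of T cell state rose in 8 of 12 cases, among them Tbx21 (T-bet, 1.68 ± 0.20), Eomes (1.13 ± 0.17) and Ikzf3 (1.22 ± 0.14), while Nr4a2, a factor induced by receptor signalling, fell by 0.65 on the log2 scale (SE 0.19). Memory and naive T cell genes gave 7 rises of 11, such as the interleukin-7 receptor Il7r (1.94 ± 0.28) and the residency-linked chemokine receptor Cxcr6 (3.42 ± 0.36), and 4 rises without anti-PD-1 tumours 1 and 2. Cd44, an adhesion receptor that CT26 cells could also carry, fell by 0.84 on the log2 scale (SE 0.28, adjusted p = 0.032). Regulatory T cell genes rose in 5 of 7 tested cases, among them Ctla4 (1.84 ± 0.20) and Il2ra (1.12 ± 0.19). Their defining factor Foxp3 was below the filter, at 0.0037 to 0.533 FPKM with PBS and 0.481 to 1.31 FPKM with anti-PD-1.

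Genes of the NK cell receptor list rose in 12 of 13 tested cases, with a median of 2.0. The list also holds a granzyme gene and signalling adaptors such as Fcer1g, so not every rise is that of a receptor. Klrd1, the CD94 chain that NK cells and activated CD8 T cells share, was at 0.752, 1.82, 8.94, 0.48 and 0.237 FPKM with PBS and at 28.3, 23, 18.3, 16.3 and 19.4 FPKM with anti-PD-1 (3.30 ± 0.35, adjusted p = 8.83e-06). Its partner Klrc1 rose by 2.95 ± 0.31 and the more NK-restricted Ncr1, which encodes NKp46, by 1.84 ± 0.31. B and plasma cell genes were higher in 5 of 8 cases, but no member of that list separated the groups. Of the immunoglobulin genes, Ighm rose by 2.52 ± 0.46, Igkc by 3.28 ± 0.65 and the joining chain Jchain by 1.46 ± 0.29, and the signalling chains of the B cell receptor rose too, Cd79a by 0.75 ± 0.19 and Cd79b by 1.37 ± 0.25. Without anti-PD-1 tumours 1 and 2 the count was 3. Cxcl13, the chemokine that draws B cells into follicles, rose by 3.13 ± 0.45, and Ltb, a lymphotoxin chain used in lymphoid organs, by 2.79 ± 0.32. The filter bears on these lists too. Members kept only through the mutant anti-PD-1 tumours numbered 8 of 12 costimulatory genes, 4 of 12 transcription factors and 4 of 11 memory genes. They numbered 5 of 7 regulatory T cell genes, 6 of 13 genes of the NK cell list and 2 of 8 B cell genes. Further on they numbered 4 of 11, 3 of 12 and 2 of 8 in the 3 dendritic cell lists, 9 of 26 interleukin genes, 4 of 12 chemokine receptors, 9 of 21 muscle genes and 5 of 9 adipocyte genes.

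Dendritic cell genes rose at lower levels. Xcr1, the chemokine receptor of the cross-presenting cDC1 subset, was at 0.0539, 0.68, 2.84, 0.248 and 0.119 FPKM with PBS and at 3.36, 4.12, 4.61, 2.76 and 5.41 FPKM with anti-PD-1 (1.70 ± 0.26, adjusted p = 0.000109). Anti-PD-1 tumour 4 lay just under PBS tumour 3. In that subset's list 9 of 11 tested genes rose, including Wdfy4, needed for cross-presentation (1.42 ± 0.20), and the lineage factors Irf8 (2.21 ± 0.35) and Batf3 (1.15 ± 0.21), and 3 of 11 rose within the M style. The list's median log2 change was 1.15 with all libraries and 1.24 within the M style. The list for cDC2 and mature dendritic cells gave 8 rises of 12, among them the migration receptor Ccr7 (1.55 ± 0.25) and Irf4 (1.16 ± 0.18). Without the 3 least correlated libraries of the series, which are anti-PD-1 tumours 1 and 2 and a vector tumour, 5 rose and 1 fell, and without anti-PD-1 tumours 1 and 2 alone 4 rose and 1 fell. Of 8 tested genes of the plasmacytoid list 5 rose, such as the nucleic acid receptor Tlr9 (2.43 ± 0.31) and Irf7, which is also in the type I interferon list below. Tcf4 and Spib of that list did not pass, and Siglech and Ccr9 were below the filter. These rises alone therefore do not show more plasmacytoid cells. Cox6a2 fell by 1.07 on the log2 scale (SE 0.36). Cox6a2 is also a muscle gene. Of the plasmacytoid list 3 rose without anti-PD-1 tumours 1 and 2 and 3 with the muscle covariate.

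Macrophage genes rose in 18 of 23 cases with a median of 1.98, and 16 of the 23 separated the groups upward, against 11.1% of all genes tested. Adgre1, which encodes the macrophage surface protein F4/80, was at 7.12, 14.9, 33.6, 12.8 and 12 FPKM with PBS and at 147, 160, 70.4, 74.6 and 99 FPKM with anti-PD-1 (2.82 ± 0.35, adjusted p = 2.07e-05). Anti-PD-1 tumours 1 and 2 were highest, and the other treated tumours still held more than any PBS tumour. Mertk, a receptor for dead cells (2.06 ± 0.24), Aif1 (2.65 ± 0.36) and Ms4a7 (2.60 ± 0.36) rose in the same way. Spp1, the osteopontin of tumour macrophages and of cancer cells, went down: 4011, 3922, 2235, 3368 and 3858 FPKM with PBS against 626, 1175, 2314, 2133 and 1830 FPKM with anti-PD-1 (-1.33 ± 0.32, adjusted p = 0.00485). The groups overlapped in PBS tumour 3 and anti-PD-1 tumour 3. Some macrophage genes did not pass: the mannose receptor gene Mrc1 differed by 0.58 ± 0.38, the haemoglobin scavenger receptor gene Cd163 by 0.58 ± 0.62 and the arginine-degrading enzyme Arg1 by 0.36 ± 0.48, and without anti-PD-1 tumours 1 and 2 these differences were -0.37, -1.09 and -0.30. Nos2, the nitric oxide synthase of activated macrophages, rose by 2.06 ± 0.40.

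Other myeloid lists differed in how firmly they rose. Monocyte genes rose in 8 of 13 cases, with Ly6c2 (2.65 ± 0.37) and Plac8 (1.61 ± 0.26) among them, and in 5 without anti-PD-1 tumour 1 or without anti-PD-1 tumour 2, in 4 without the 3 least correlated libraries, and in 3 without anti-PD-1 tumours 1 and 2 together. Neutrophil genes rose in 5 of 12 cases, led by the growth factor receptor Csf3r (2.42 ± 0.38), and that count depended on the libraries used. It was 9 without anti-PD-1 tumour 5, 10 within the M style, 3 with 1 fall without the 3 least correlated libraries, and 2 with 1 fall without anti-PD-1 tumours 1 and 2, where the median went from 1.24 to 0.384. S100a8, an abundant calcium-binding protein of neutrophils, was at 2.7 to 139 FPKM with anti-PD-1 against 8.96 to 19.3 FPKM with PBS and did not pass (1.22 ± 0.75, adjusted p = 0.229). The defining marker Ly6g reached at most 1.66 FPKM. Mast cell genes rose in 6 of 7 cases, such as the proteases Tpsb2 (2.51 ± 0.49) and Cma1 (2.55 ± 0.52), while 2 of 7 rose within the M style and 3 without anti-PD-1 tumours 1 and 2. Their median log2 change moved little: 2.2 with all libraries, 1.86 within the M style and 2.21 without those 2 tumours. PBS tumour 1 and PBS tumour 4 had the lowest summed mast cell level, 15.7 and 12.9 FPKM.

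Genes for engulfing and degrading targets rose together. Fc gamma receptors and their signalling partners, which bind antibody-coated particles, rose in 13 of 13 tested cases (median 1.79), with Fcgr4 up by 3.32 ± 0.45 and the shared chain Fcer1g by 2.19 ± 0.29. Complement gave 16 rises of 19 (median 2.01), among them C1qb (2.14 ± 0.32), C1qc (1.99 ± 0.30) and C2 (2.28 ± 0.33). Lysosomal enzymes rose in 17 of 20 cases, including Ctss, the cathepsin that trims the MHC class II chaperone (2.57 ± 0.33), Psap (2.15 ± 0.31) and Lipa (2.24 ± 0.34). Summed lysosomal levels were 1840 to 2650 FPKM with PBS and 10800, 7320, 3490, 3800 and 3650 FPKM in anti-PD-1 tumours 1 to 5. In these lists the tumours with the most collagen were again the highest, and without anti-PD-1 tumours 1 and 2 the same 3 lists gave 12, 13 and 12 rises. Enzymes that immune cells use to alter metabolites gave 8 rises of 12, with Acod1, which makes itaconate (2.56 ± 0.41), and Ass1, which rebuilds arginine (2.07 ± 0.27), and 1 fall, Gch1 (-0.49 ± 0.18, adjusted p = 0.047).

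**Figure D2:**
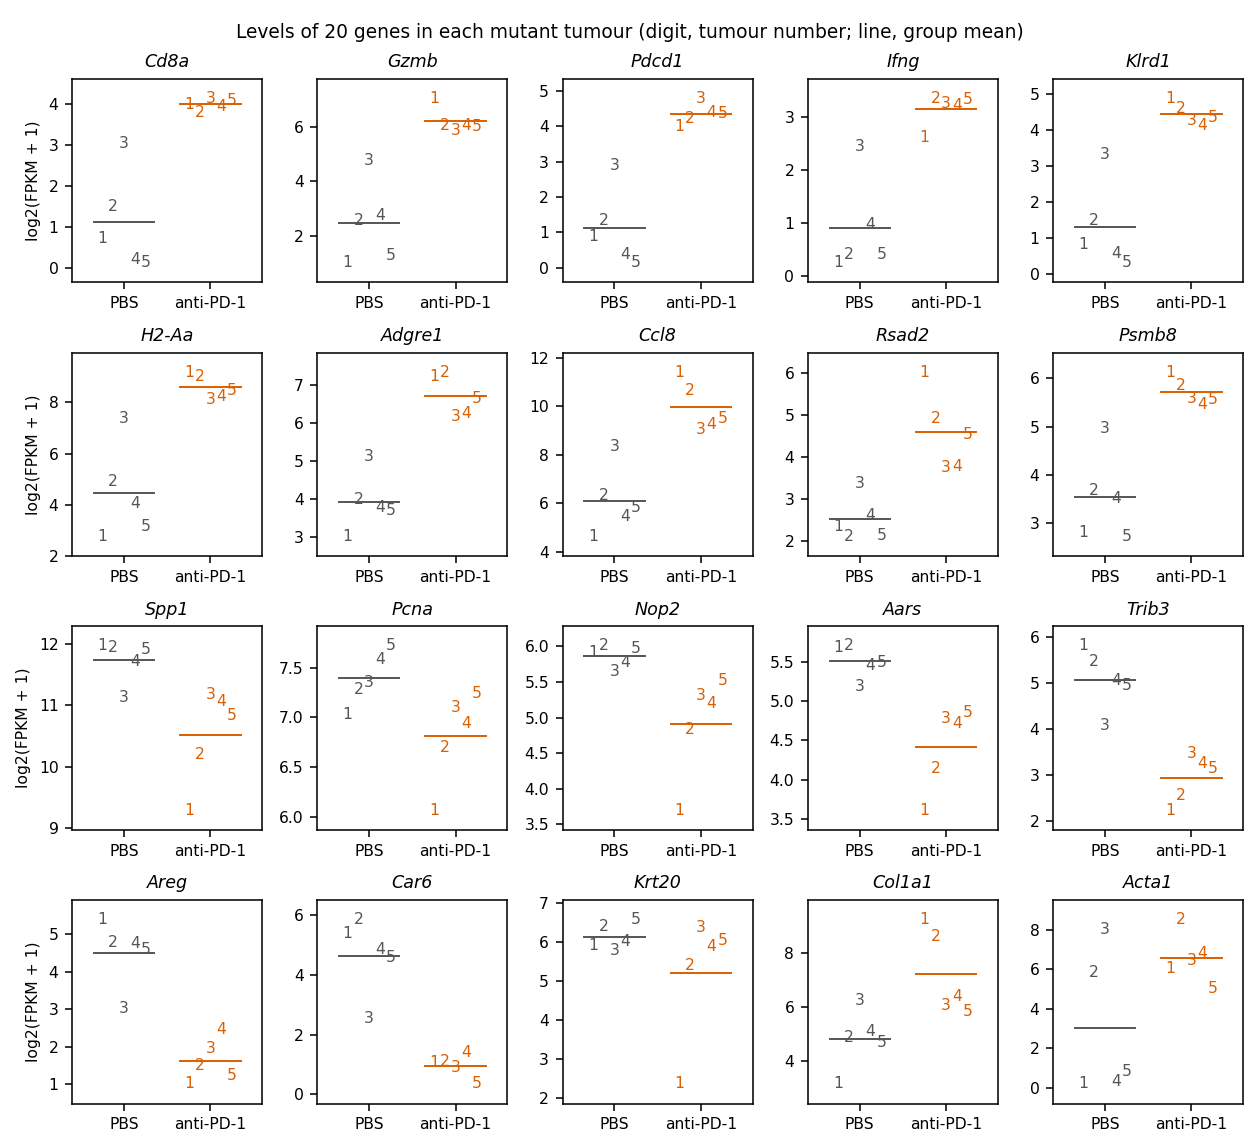
Levels of 20 genes, as log2(FPKM + 1), in the 5 PBS and the 5 anti-PD-1 mutant tumours; each digit is a tumour, placed at its number, and lines are group means. PBS tumour 3 is the highest of its group for most immune genes, and anti-PD-1 tumour 1 is the lowest for Krt20 (4.16 FPKM) and the highest for Col1a1 (600 FPKM).

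Chemokines and their receptors rose unevenly. Ccl8, a chemokine for monocytes and T cells that macrophages make, was at 23.7, 78.3, 320, 43 and 55 FPKM with PBS and at 2712, 1600, 524, 613 and 718 FPKM with anti-PD-1 (4.03 ± 0.61, adjusted p = 0.000103). Every treated tumour lay above PBS tumour 3. Of 14 CC chemokines 7 rose, including Ccl4 (1.97 ± 0.29) and Ccl3 (1.62 ± 0.37), and of 13 CXC and C chemokines 9 rose, including Cxcl16, the ligand of CXCR6 (1.79 ± 0.22), and Cxcl12 (2.42 ± 0.38). The interferon-gamma-induced Cxcl9, which attracts T cells through CXCR3, was at 6.58, 28.5, 112, 35.4 and 15.6 FPKM with PBS and at 65.6, 201, 168, 161 and 260 FPKM with anti-PD-1 (2.52 ± 0.65, adjusted p = 0.00718). Anti-PD-1 tumour 1 was under PBS tumour 3. Chemokine receptors rose in 10 of 12 cases. The chemokine counts moved with the libraries used. Of the CC chemokines 10 rose within the M style, 4 with the muscle covariate and 3 without anti-PD-1 tumours 1 and 2, and of the CXC and C chemokines 5, 3 and 5. Chemokine receptors gave 6 rises without anti-PD-1 tumours 1 and 2.

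Interleukin genes rose in 19 of 26 cases. Il2rb, the interleukin-2 and interleukin-15 receptor chain of killer cells, rose by 3.28 ± 0.41, Il18bp, a secreted trap for interleukin-18, by 2.49 ± 0.29, Il27 by 1.66 ± 0.20 and Il12rb2 by 1.04 ± 0.12. Il11, a cytokine of stroma and cancer cells, fell by 1.5 on the log2 scale (SE 0.33, adjusted p = 0.0024). In the TNF and NF-kB list 11 of 18 rose, such as Tnf (1.43 ± 0.23), the death ligand Tnfsf10 (2.06 ± 0.34) and the adhesion molecule Icam1 (2.26 ± 0.31), while Nfkb2 fell by 0.61 on the log2 scale (SE 0.16). Of the 18, 5 rose without anti-PD-1 tumours 1 and 2.

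Interferon genes were next. Ifng, the cytokine itself, was at 0.19, 0.332, 4.45, 0.961 and 0.333 FPKM with PBS and at 5.1, 9.17, 8.55, 8.23 and 9.07 FPKM with anti-PD-1 (2.26 ± 0.32, adjusted p = 6.72e-05). The treated tumours all lay above PBS tumour 3. Of 18 genes of its signalling path 14 rose, among them Ciita, the master switch of MHC class II (2.46 ± 0.34), and the transcription factor Stat2 (1.77 ± 0.30). The receptor chains Ifngr1 and Ifngr2 and the factor Irf1 did not pass. Leaving out PBS tumour 5 or anti-PD-1 tumour 2 brought the 14 down to 8. Within the M style 4 rose, without anti-PD-1 tumours 1 and 2 together 7, and with the muscle covariate 8.

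The families that interferon gamma induces rose with wide spread. Guanylate-binding proteins, which attack vacuoles of intracellular microbes, gave 10 rises of 11 (median 1.87). Gbp5 was at 2.85, 5.81, 25.6, 13.2 and 4.41 FPKM with PBS and at 18, 41.6, 50.9, 50.3 and 54.6 FPKM with anti-PD-1 (2.17 ± 0.53, adjusted p = 0.00498). Here anti-PD-1 tumour 1 was the lowest of its group and fell inside the PBS range. The immunity-related GTPases and their neighbours rose in 9 of 9 tested cases (median 2.04), with Igtp up by 2.04 ± 0.50 and Irgm1 by 1.89 ± 0.41. Within the M style, which holds PBS tumours 1, 2 and 3 and anti-PD-1 tumours 1 and 2, 0 of 11 guanylate-binding proteins and 1 of 9 of these GTPases passed, and within the number style 11 and 9. With the muscle covariate 4 and 3 rose, and without PBS tumour 5 the guanylate-binding count was 6.

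Genes known as type I interferon-stimulated rose in 24 of 25 cases (median 1.59), Oasl1 being the exception. Rsad2, which encodes the antiviral enzyme viperin, was at 4.08, 3.32, 9.35, 5.15 and 3.4 FPKM with PBS and at 64.1, 29.5, 12.5, 12.7 and 22.2 FPKM with anti-PD-1 (2.19 ± 0.32, adjusted p = 7.36e-05). The groups did not overlap. Ifit3 rose by 2.06 ± 0.29, Irf7, the factor that amplifies interferon production, by 2.17 ± 0.34 and Mx2 by 1.46 ± 0.24. Cytosolic DNA sensing genes rose in 10 of 14 cases, including Samhd1 (1.87 ± 0.29) and Ifi204 (0.94 ± 0.14). Of 7 Schlafen genes, interferon-induced regulators of growth and translation, 5 rose, with Slfn2 up by 2.32 ± 0.27 and Slfn5 by 2.27 ± 0.40. Within the M style 13 of the 25 type I genes and 4 of the 14 DNA sensing genes rose.

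Promoters of these genes were read for the response elements that interferon-activated factors bind. In windows of 300 bases (250 before to 50 after the start; RefSeq, GRCm38.p6), the core of the interferon-stimulated response element, GAAA and GAAA separated by any 2 bases, on either strand, was found in 3.99% of 27025 genes with a window and in 4.03% of 9373 tested genes. It was present in 8.26% of 1622 genes that rose, in 2.96% of 1386 that fell and in 30 of 60 tested genes of the interferon lists. The gamma-activated site, TTCNNNGAA, read on both strands in the same way, was present in 9.55%, 8.41%, 11.0%, 8.01% and 28.3% of the same sets. These shares describe letters, not binding. The 250 bases before the start are shown for the 3 interferon-list genes with the largest rises among those that hold the core, which is in capitals. They are the immunity-related GTPase gene Gm12250, annotated as a processed pseudogene (chr11:58183593-58183842, plus strand), Slfn5 (chr11:82951852-82952101, plus strand) and Rsad2 (chr12:26456453-26456702, minus strand).
Gm12250: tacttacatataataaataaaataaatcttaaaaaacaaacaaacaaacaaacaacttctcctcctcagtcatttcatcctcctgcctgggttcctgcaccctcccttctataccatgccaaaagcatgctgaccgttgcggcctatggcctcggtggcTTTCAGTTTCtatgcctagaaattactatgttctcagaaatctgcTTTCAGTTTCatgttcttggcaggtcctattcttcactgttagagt
Slfn5: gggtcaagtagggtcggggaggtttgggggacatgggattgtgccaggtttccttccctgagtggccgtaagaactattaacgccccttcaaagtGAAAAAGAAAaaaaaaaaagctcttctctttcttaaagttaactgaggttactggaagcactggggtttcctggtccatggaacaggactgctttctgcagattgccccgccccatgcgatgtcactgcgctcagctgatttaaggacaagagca
Rsad2: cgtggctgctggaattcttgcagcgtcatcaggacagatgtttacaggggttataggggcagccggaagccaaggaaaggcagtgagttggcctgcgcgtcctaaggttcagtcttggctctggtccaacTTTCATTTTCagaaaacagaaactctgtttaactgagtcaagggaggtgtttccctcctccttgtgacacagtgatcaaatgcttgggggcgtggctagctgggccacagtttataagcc

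Gm12250 holds the core at 2 places, beginning 91 and 46 bases before its start, Slfn5 at 155 bases and Rsad2 at 120 bases before theirs. Gm12250 rose from a mean of 19 ± 21.8 FPKM (SD, n = 5) with PBS to 89.5 ± 41.9 FPKM with anti-PD-1 (2.69 ± 0.67, adjusted p = 0.00559). Its groups overlapped, since anti-PD-1 tumour 1 was under PBS tumour 3.

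Antigen presentation rose in both classes. MHC class II genes, which display peptides to helper T cells, rose in 10 of 10 tested cases with a median of 2.76. H2-Aa was at 5.73, 28.8, 163, 15.7 and 7.82 FPKM with PBS and at 580, 517, 275, 298 and 357 FPKM with anti-PD-1 (4.34 ± 0.60, adjusted p = 4.66e-05). PBS tumour 3 was apart from its group but below every treated tumour. The class II chains H2-Eb1 (4.34 ± 0.61) and H2-Ab1 (4.28 ± 0.60) and the invariant chain Cd74 (3.95 ± 0.54) rose about as much.

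MHC class I genes rose in 15 of 15 tested cases, with a median of 1.06, and within the M style in 6. H2-D1, a classical class I gene, was at 456, 539, 743, 453 and 366 FPKM with PBS and at 1311, 919, 924, 961 and 860 FPKM with anti-PD-1 (1.05 ± 0.17, adjusted p = 0.000165). Its partner beta-2 microglobulin, B2m, rose by 0.94 ± 0.17. The nonclassical H2-T23, a ligand of the receptor that holds CD94, rose by 2.66 ± 0.31. CT26 is of the BALB/c strain and the mm10 genome of C57BL/6, and these genes differ between the strains, so their absolute levels are uncertain.

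The proteasome changed in its inducible part. Psmb8, a catalytic subunit of the immunoproteasome, was at 5.99, 11.9, 30.3, 10.4 and 5.63 FPKM with PBS and at 68.7, 57, 47.1, 42.7 and 46.2 FPKM with anti-PD-1 (2.28 ± 0.30, adjusted p = 3.54e-05). The ratio of Psmb8 to Psmb5, its counterpart in the standard proteasome, was 0.0803 to 0.49 with PBS and 0.764 to 1.15 with anti-PD-1. In all, 10 of 13 peptide loading and immunoproteasome genes rose, with Psmb9 (1.94 ± 0.32) and the transporter gene Tap2 (1.33 ± 0.27) among them, with 1 of 13 within the M style and 5 with the muscle covariate. Of 28 constitutive proteasome genes none rose and 3 fell, a share under the 14.6% of all genes that fell. These were Psmc6 (-0.42 ± 0.11), Psmd14 (-0.48 ± 0.16) and Psmc2 (-0.32 ± 0.11). When any of PBS tumours 2 and 5 and anti-PD-1 tumours 1 and 2 was left out, 1 fell.

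**Figure D3:**
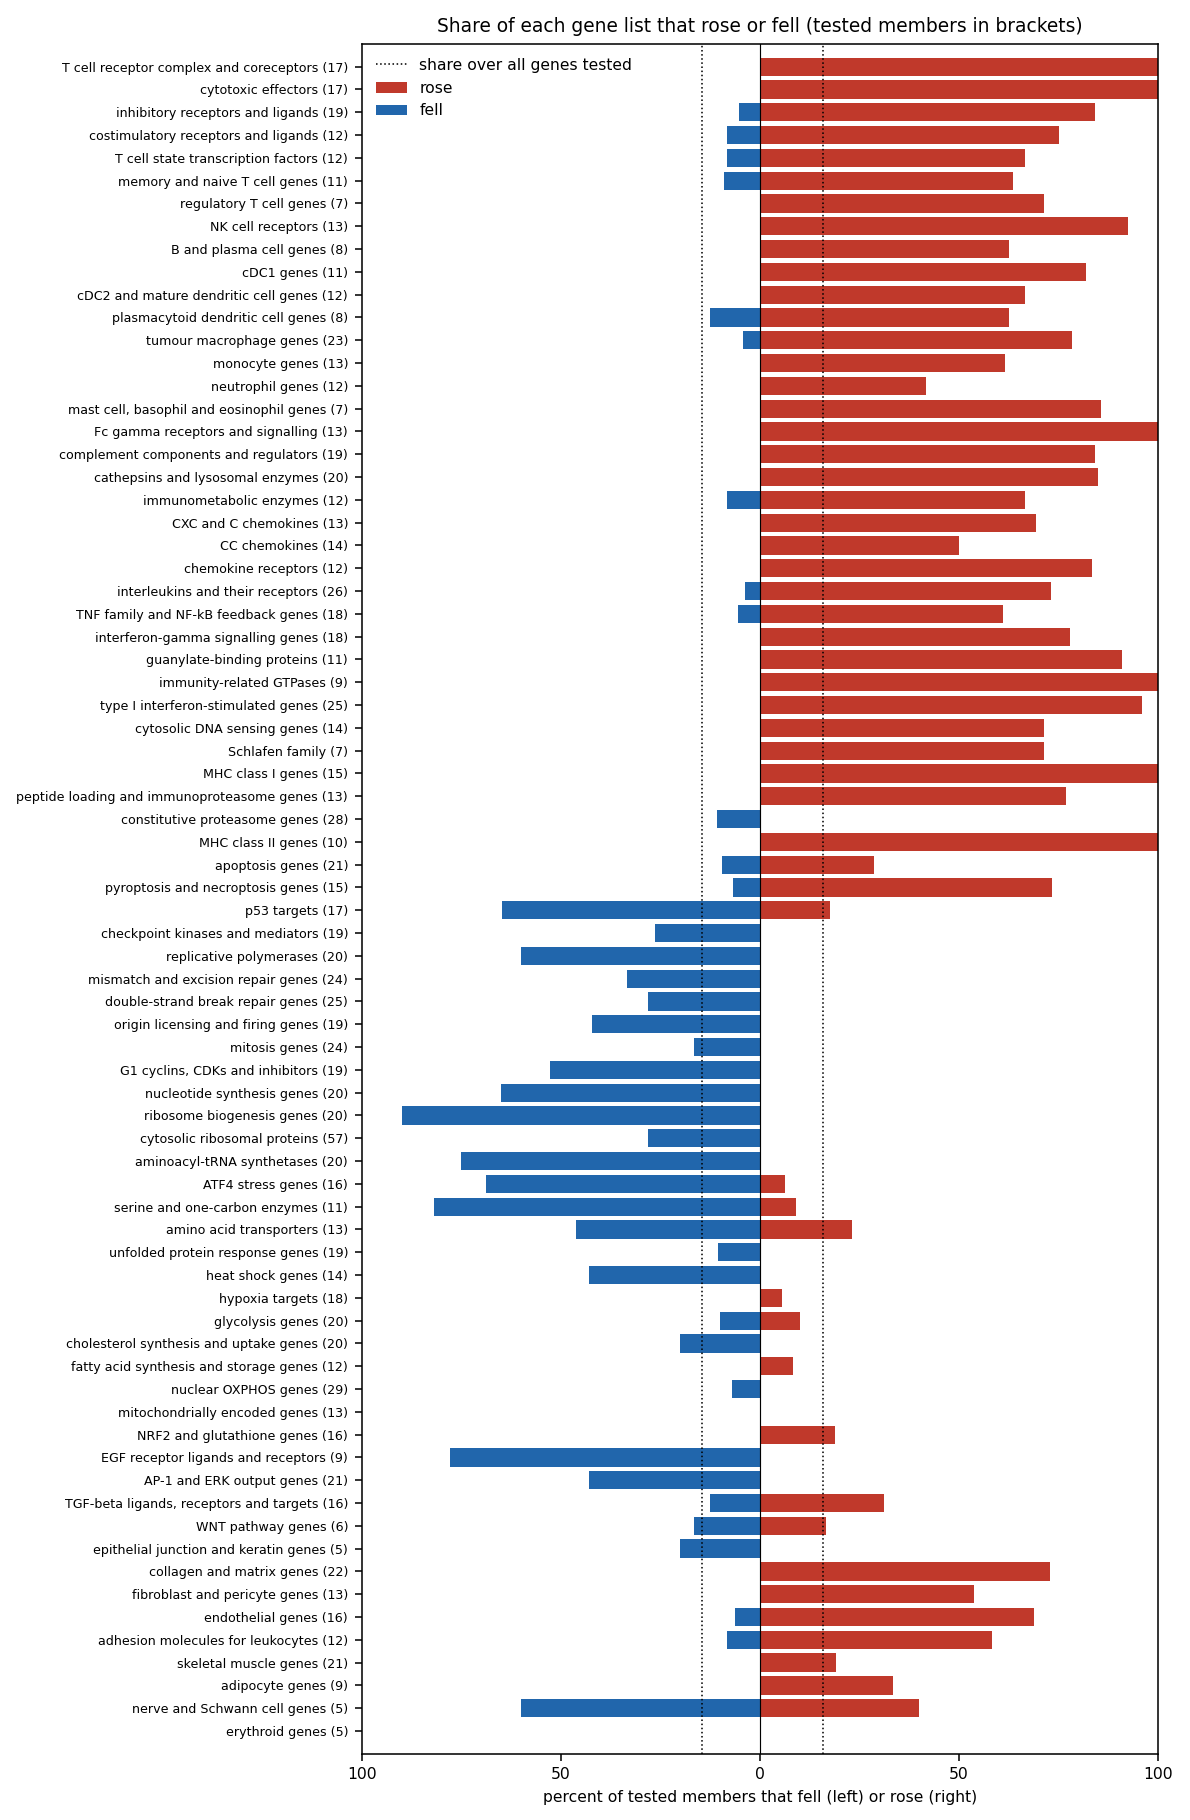
Percent of tested members that rose (right, red) or fell (left, blue) in each list with at least 5 tested genes, whose number is in brackets; dotted lines mark 15.9% and 14.6%, the shares over all genes tested. Immune and interferon lists lie to the right, and lists of replication, translation, amino acid synthesis and EGF receptor ligands lie to the left.

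Cell death genes split by pathway. Pyroptosis and necroptosis genes rose in 11 of 15 cases, including the inflammasome gene Nlrc4 (1.17 ± 0.17), Il18 (1.74 ± 0.27), Ripk3 (1.20 ± 0.19) and Casp4 (0.90 ± 0.19), and Gsdme fell by 0.40 on the log2 scale (SE 0.12). Within the M style 6 of the 15 rose. Apoptosis genes gave 6 rises and 2 falls of 21. The rises were led by the Bcl2a1 family of leukocyte survival genes, Bcl2a1b (1.54 ± 0.20), Bcl2a1d (1.37 ± 0.21) and Bcl2a1a (1.36 ± 0.23), which are near-identical and can share reads. The rises numbered 3 without anti-PD-1 tumours 1 and 2. The death receptor Fas rose by 1.0 ± 0.20. Of 17 targets of p53, 11 fell and 3 rose. Bbc3, which encodes the death trigger PUMA, fell by 0.89 on the log2 scale (SE 0.17), the death receptor Tnfrsf10b by 0.76 (SE 0.15) and Eda2r by 1.18 (SE 0.25), while Sesn1 (1.41 ± 0.30), Btg2 (1.22 ± 0.28) and Trp53inp1 (0.82 ± 0.25) rose. Cdkn1a, the cell cycle inhibitor p21, fell by 0.80 on the log2 scale (SE 0.24), and Mdm2 did not pass at -0.40 ± 0.24. This balance shrank in other settings: 8 fell and 2 rose without the 3 least correlated libraries, 4 fell and 3 rose within the M style, 5 and 2 did with the muscle covariate, and 4 and 0 without anti-PD-1 tumours 1 and 2.

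Genes of DNA replication and repair were lower, by less and less firmly. Pcna, the sliding clamp of the replication fork, was at 130, 155, 162, 191 and 210 FPKM with PBS and at 65.9, 103, 136, 122 and 150 FPKM with anti-PD-1 (-0.65 ± 0.16, adjusted p = 0.00451). Anti-PD-1 tumours 3 and 5 lay within the PBS range. Of 20 replicative polymerase genes 12 fell and none rose, with Pole3, a small subunit of polymerase epsilon, at -0.50 ± 0.12 and Prim1, the primase, at -0.72 ± 0.22. That count rested on single libraries: it was 3 without anti-PD-1 tumour 1, 5 without PBS tumour 2, PBS tumour 3 or PBS tumour 4, 7 without PBS tumour 5 or anti-PD-1 tumour 2, 3 without the 3 least correlated libraries, 3 with the muscle covariate and 1 without anti-PD-1 tumours 1 and 2. Origin licensing and firing genes fell in 8 of 19 cases, such as Mcm7 of the replicative helicase (-1.01 ± 0.26), and in 4 without anti-PD-1 tumour 1. Checkpoint genes fell in 5 of 19 cases, among them Trp53 (-0.58 ± 0.17) and Hus1 (-0.53 ± 0.18), and in 1 without PBS tumour 2, 2 without PBS tumour 3 and 0 without anti-PD-1 tumour 1. Without anti-PD-1 tumours 1 and 2 together 0 origin genes and 0 checkpoint genes fell, and with the muscle covariate 6 and 0.

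In mismatch and excision repair 8 of 24 genes fell. Ercc1, a subunit of the nuclease that cuts beside bulky damage, stood out at 80.1, 78.8, 46.6, 65.5 and 73.5 FPKM with PBS and 7.78, 17.3, 44.1, 41.7 and 27.4 FPKM with anti-PD-1 (-1.58 ± 0.29, adjusted p = 0.000557). The groups did not overlap, though PBS tumour 3 and anti-PD-1 tumour 3 were close. The mismatch gene Pms2 (-0.54 ± 0.16) fell as well, and without anti-PD-1 tumour 1 the count was 3. Break repair genes fell in 7 of 25 cases, led by the end-binding Ku subunits Xrcc5 (-0.99 ± 0.18) and Xrcc6 (-0.78 ± 0.18), in 4 without PBS tumour 2 and in 2 without anti-PD-1 tumour 1. Without anti-PD-1 tumours 1 and 2 together 2 mismatch and excision genes and 1 break repair gene fell, and with the muscle covariate 4 and 2. No gene of the replication, checkpoint and repair lists rose in the fit of all 20 libraries.

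Cell cycle and nucleotide genes followed. Ccnd1, the cyclin that starts the G1 phase, was at 226, 251, 209, 256 and 265 FPKM with PBS and at 38, 102, 182, 171 and 206 FPKM with anti-PD-1 (-1.10 ± 0.27, adjusted p = 0.00517). Anti-PD-1 tumour 1 was far below, and tumour 5 just under the lowest PBS tumour. In the G1 list 10 of 19 fell, with Myc at -1.0 ± 0.25 and Ccne2 at -1.03 ± 0.26, and 6, 6, 6, 4 and 6 fell when PBS tumours 1, 2 and 4 and anti-PD-1 tumours 1 and 2 were left out in turn. Mitosis genes were nearer the background: 4 of 24 fell, Cdk1, Bub1, Mad2l1 and Ndc80, against 14.6% of all genes, and the proliferation marker Mki67 did not pass at -0.53 ± 0.23. Leaving out PBS tumour 2, PBS tumour 5, anti-PD-1 tumour 1 or anti-PD-1 tumour 2 left 1, and leaving out anti-PD-1 tumour 5 gave 10. Nucleotide synthesis genes fell in 13 of 20 cases, among them Dut (-0.89 ± 0.18) and Umps (-0.80 ± 0.18), and in 6 without anti-PD-1 tumour 1. With anti-PD-1 tumours 1 and 2 both left out, 1 G1 gene, 0 mitosis genes and 1 nucleotide gene fell.

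Genes for making ribosomes and charging tRNAs fell in larger shares. Of 20 ribosome biogenesis genes 18 fell (median -0.697). Nop2, a nucleolar RNA methyltransferase, was at 59.2, 63.2, 49.2, 53.6 and 61.5 FPKM with PBS and at 12, 27.4, 38.7, 35.7 and 45.1 FPKM with anti-PD-1 (-1.0 ± 0.23, adjusted p = 0.00329). All treated tumours were below all PBS tumours. The nucleolar genes Nop58 (-0.92 ± 0.21) and Nop16 (-0.88 ± 0.20) and the ribosome assembly gene Wdr12 (-0.67 ± 0.14) fell too. The count was 9 without the 3 least correlated libraries and 11 with the muscle covariate, and without anti-PD-1 tumours 1 and 2 it was 1 of 20, with a median of -0.349. Cytosolic ribosomal proteins separated the groups downward in 43 of 57 cases, against 11.8% of all genes tested. However, 16 of 57 passed the test, with Rpl4 at -0.76 ± 0.18 and Rps18 at -0.89 ± 0.24. Under quantile normalization 41 of the 57 passed and under median-ratio scaling 3, and 2 passed without anti-PD-1 tumour 1, 3 without anti-PD-1 tumour 2, 3 without PBS tumour 5, and 7, 9 and 10 without PBS tumours 1, 2 and 4. None passed without anti-PD-1 tumours 1 and 2 (limma, 0 of 57), 2 with the muscle covariate and 37 within the number style.

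Aminoacyl-tRNA synthetases fell in 15 of 20 cases (median -0.929), and 14 of 20 without the 3 least correlated libraries, where the median was -0.502. Without anti-PD-1 tumours 1 and 2, 9 fell and 1 rose. Aars, the enzyme for alanine, was at 50.7, 51.2, 35.6, 42.9 and 44.2 FPKM with PBS and at 11.2, 16.6, 26.5, 25.2 and 28 FPKM with anti-PD-1 (-1.14 ± 0.18, adjusted p = 0.000154). The groups did not overlap. Rars fell by 1.07 on the log2 scale (SE 0.19), Tars by 1.18 (SE 0.21) and Nars by 0.91 (SE 0.18).

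The amino acid stress program of the factor ATF4 was lower. Of 16 genes 11 fell and 1 rose. Trib3, a pseudokinase that ATF4 induces, was at 54.9, 43.5, 15.8, 32.4 and 29.7 FPKM with PBS and at 3.73, 4.93, 10.1, 8.54 and 7.8 FPKM with anti-PD-1 (-2.14 ± 0.29, adjusted p = 3.7e-05). Asns, which makes asparagine, was at 131, 136, 94.3, 95.5 and 116 FPKM with PBS and at 9.99, 23, 61.6, 48.3 and 74 FPKM with anti-PD-1 (-1.72 ± 0.37, adjusted p = 0.00202). Neither gene's groups overlapped. Chac1, a glutathione-degrading enzyme (-2.05 ± 0.28), the factor Atf5 (-1.50 ± 0.24), the death-linked factor Ddit3 (-1.35 ± 0.29) and Atf4 itself (-0.79 ± 0.26) fell, while Atf3, an early stress factor also active in macrophages, rose by 1.66 ± 0.37. Without the 3 least correlated libraries 7 fell and 2 rose, with the muscle covariate 7 fell, and 4 fell without anti-PD-1 tumours 1 and 2.

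Serine and one-carbon enzymes, which feed nucleotide synthesis, fell in 9 of 11 cases, among them Mthfd2 (-1.43 ± 0.25), Aldh1l2 (-1.93 ± 0.35), Shmt2 (-1.24 ± 0.23) and Psph (-0.87 ± 0.18), and Aldh1l1 rose by 1.0 ± 0.17. The falls numbered 5 without anti-PD-1 tumours 1 and 2. Amino acid transporters divided: 6 of 13 fell and 3 rose. The glutamine carrier Slc1a5 was at 65.2, 67.8, 42.4, 52.5 and 54.5 FPKM with PBS and at 20.1, 21.7, 28.2, 24.1 and 33.5 FPKM with anti-PD-1 (-1.13 ± 0.16, adjusted p = 5.08e-05). Its 5 treated tumours were alike, and all lay below the PBS tumours. Slc7a5, a carrier of large neutral amino acids, fell by 1.36 on the log2 scale (SE 0.28), and Slc7a7 (1.36 ± 0.25), Slc7a8 (1.33 ± 0.29) and Slc38a1 (0.63 ± 0.13) rose. The transporter counts without anti-PD-1 tumours 1 and 2 were 3 falls and 1 rise.

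Heat shock genes fell in part, and the other lists of protein folding, energy and lipid genes gave few calls. Over all genes tested 14.6% fell and 15.9% rose, and the counts of those other lists were near or under these shares. Heat shock genes fell in 6 of 14 cases, with the mitochondrial chaperone Hspd1 at -1.14 ± 0.20, in 1 without anti-PD-1 tumour 1, 2 without anti-PD-1 tumour 2 or PBS tumour 1, 3 without PBS tumour 2, and 1 with the muscle covariate or without anti-PD-1 tumours 1 and 2. Unfolded protein response genes fell in 2 of 19 cases, Herpud1 (-0.99 ± 0.18) and Hsp90b1 (-0.43 ± 0.12), and in 8 without the 3 least correlated libraries. Of 20 glycolysis genes 2 rose, the glucose carrier Slc2a3 (1.38 ± 0.18) and Pfkfb3 (1.08 ± 0.36), and 2 fell, Slc16a1 (-0.95 ± 0.24) and Eno1 (-0.72 ± 0.24). Hypoxia targets gave 1 rise of 18, Epas1 (1.48 ± 0.37), which vessels and macrophages also express, and 29 nuclear genes of oxidative phosphorylation gave 2 falls, Atp5b (-0.49 ± 0.15) and Cycs (-0.39 ± 0.14). None of 13 mitochondrially encoded genes passed, and 13 of 13 fell within the number style. Cholesterol synthesis genes fell in 4 of 20 cases, led by Sqle (-1.24 ± 0.29), in 2 without anti-PD-1 tumour 1, 8 without anti-PD-1 tumour 5, 8 within the M style and 0 without anti-PD-1 tumours 1 and 2. Fatty acid genes gave 1 rise of 12, Plin2 (1.06 ± 0.38), and NRF2 and glutathione genes 3 rises of 16, the ferritin genes Fth1 (0.92 ± 0.23) and Ftl1 (0.67 ± 0.23) and Keap1 (0.42 ± 0.12).

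Growth factor ligands of the EGF receptor held several of the largest falls. Areg, amphiregulin, was at 41, 26.4, 7.08, 26 and 23 FPKM with PBS and at 1.02, 1.82, 2.92, 4.51 and 1.34 FPKM with anti-PD-1 (-2.96 ± 0.34, adjusted p = 1.41e-05). PBS tumour 3 was the lowest of its group and still above every treated tumour. Ereg (-2.33 ± 0.52), Hbegf (-2.12 ± 0.40) and Btc (-1.86 ± 0.48), further ligands, fell as well. In all 7 of 9 genes of the list fell. The count was 4 without anti-PD-1 tumour 1, and it was 2 when anti-PD-1 tumour 2 was left out as well. Of 21 AP-1 and ERK output genes, which report signalling downstream of such receptors, 9 fell, among them Spry4 (-1.44 ± 0.40), Dusp5 (-0.80 ± 0.22) and Etv4 (-1.01 ± 0.31). That number was 4 without PBS tumour 1, 5 without PBS tumour 2, 4 without anti-PD-1 tumour 1, 5 without anti-PD-1 tumour 2, 1 without the 3 least correlated libraries, 5 within the M style, 1 with the muscle covariate and 0 without anti-PD-1 tumours 1 and 2.

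Outside these lists, the gene with the largest fall was Car6, a secreted carbonic anhydrase. It was at 40, 56, 4.81, 27.9 and 22.8 FPKM with PBS and at 1.1, 1.13, 0.857, 1.62 and 0.278 FPKM with anti-PD-1 (-3.63 ± 0.44, adjusted p = 1.87e-05). Every treated tumour was under 2 FPKM, and PBS tumour 3 was again the lowest of its group. Cdsn, a protein of cornified cell junctions (-2.87 ± 0.39), Angptl6 (-2.59 ± 0.31), the sterol esterifying enzyme Soat2 (-2.25 ± 0.27), the actin-binding Avil (-2.20 ± 0.37) and the ATP-gated channel P2rx3 (-2.15 ± 0.28) followed. The kinase Prkg2 (-2.12 ± 0.39), the BMP antagonist Grem1 (-2.08 ± 0.49), the deubiquitinase Usp17la (-2.02 ± 0.29) and the drug efflux pump Abcb1a (-2.02 ± 0.36) completed the 15. The other 2 largest rises outside the lists were Fgl2, a secreted immune regulator (3.39 ± 0.53), and AW112010 (3.82 ± 0.53), an interferon-induced transcript.

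**Figure D4:**
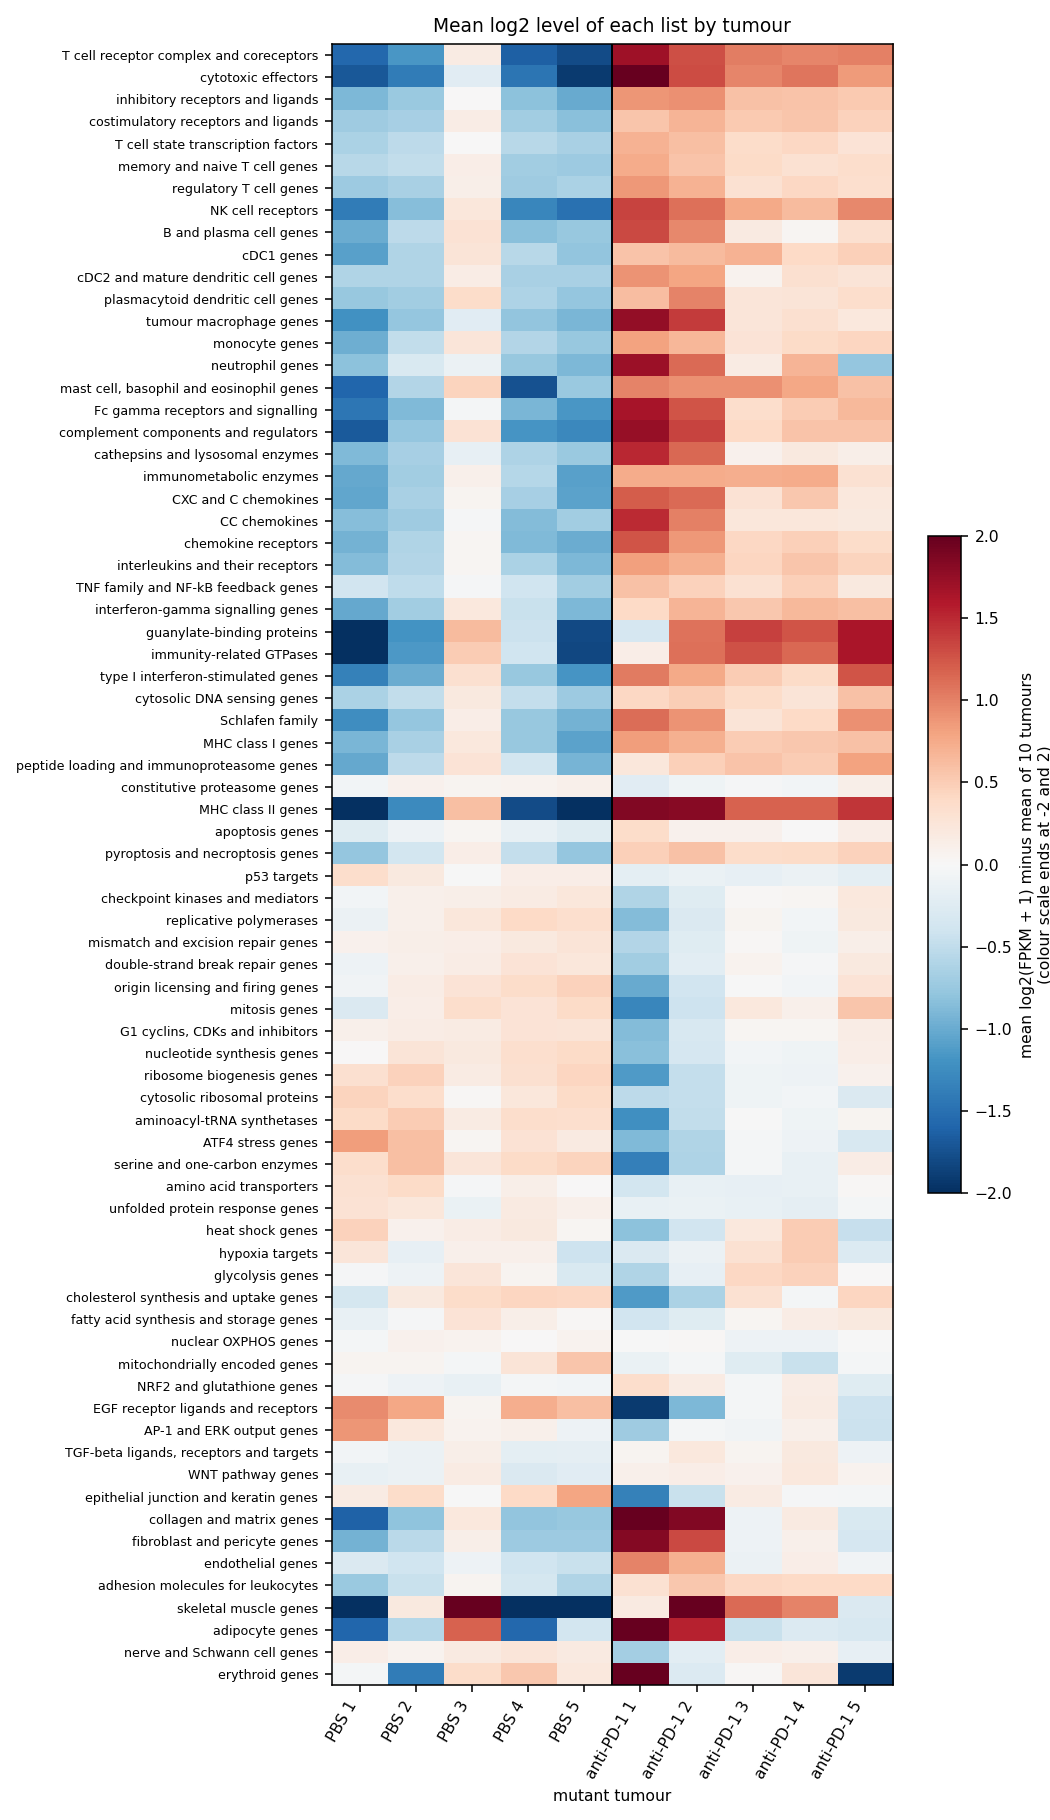
Mean log2(FPKM + 1) of the tested members of each list in each mutant tumour, minus the mean over the 10 tumours, with colour from -2 (blue) to 2 (red). PBS tumour 3 stands between its group and the anti-PD-1 tumours in most immune rows, and anti-PD-1 tumours 1 and 2 lead the collagen and fibroblast rows and are lowest in the replication rows.

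Stromal genes rose, and that rise lay in few tumours. Collagen and matrix genes rose in 16 of 22 cases with a median of 1.73. Their summed level was 464, 567, 975, 589 and 566 FPKM with PBS and 4260, 3050, 829, 939 and 727 FPKM with anti-PD-1. Col1a1, whose values are given above, rose by 2.45 ± 0.68 (adjusted p = 0.0113). The count was 3 without anti-PD-1 tumour 1, 5 without anti-PD-1 tumour 2, 6, 10 and 10 without PBS tumours 1, 2 and 4, 1 without the 3 least correlated libraries, 2 with the muscle covariate and 0 without anti-PD-1 tumours 1 and 2. Fibroblast and pericyte genes rose in 7 of 13 cases, such as the receptor Pdgfra (1.17 ± 0.37), in 2 without anti-PD-1 tumour 1, 3 without anti-PD-1 tumour 2 and 4 without PBS tumour 1. Endothelial genes rose in 11 of 16 cases, with the junction protein Pecam1 up by 1.21 ± 0.32, and Esm1, a marker of vessel tip cells, fell by 1.71 on the log2 scale (SE 0.52). Without anti-PD-1 tumour 1 or without tumour 2, 6 rose, and without the 3 least correlated libraries 1. With the muscle covariate 1 fibroblast gene and 5 endothelial genes rose.

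Adhesion molecules that leukocytes use rose in 7 of 12 cases, including Icam1 and Vcam1 (0.89 ± 0.25), while P-selectin, Selp, fell by 1.03 on the log2 scale (SE 0.36). In the TGF-beta list 5 of 16 rose, such as Tgfbi (1.56 ± 0.29), the receptor Tgfbr2 (1.28 ± 0.28) and Tgfb1 (0.67 ± 0.18), and 2 fell, the latent binding protein Ltbp1 (-1.45 ± 0.32) and the inhibitor Smad7 (-0.69 ± 0.24). The rises numbered 1 without anti-PD-1 tumours 1 and 2. Of 6 WNT genes, Sfrp1, a secreted inhibitor, rose (2.92 ± 0.44) and Wnt10a fell (-1.56 ± 0.38). Of 19 epithelial junction and keratin genes 5 were tested, and 1 of them, the keratin Krt18, fell (-1.34 ± 0.34). It was at 6.85 to 11.9 FPKM with PBS and at 0.572 to 7.26 FPKM with anti-PD-1. Its call was lost without the 3 least correlated libraries, without anti-PD-1 tumours 1 and 2 and within the number style.

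Markers of neighbouring tissue varied between tumours rather than only between treatments. Skeletal muscle genes gave 4 rises of 21 (0 within the M style and 17 within the number style), with summed levels of 4.83, 247, 1360, 5.29 and 8.05 FPKM with PBS and 256, 2050, 440, 431 and 132 FPKM with anti-PD-1. Without PBS tumour 3 the count was 18, it was 2 without PBS tumour 1, 1 without PBS tumour 4 or PBS tumour 5, and 2 without anti-PD-1 tumour 2. Acta1 differed by 3.68 ± 1.48 and did not pass (adjusted p = 0.0677). Adipocyte genes gave 3 rises of 9 and were highest in anti-PD-1 tumour 1, with a summed level of 480 FPKM, and 5 rose without PBS tumour 3 or without anti-PD-1 tumour 5, 6 within the M style and 0 without anti-PD-1 tumours 1 and 2. None of 5 erythroid genes passed, and their summed level was highest in anti-PD-1 tumour 1, at 1710 FPKM. The keratinocyte markers Krt5 and Krt14 were at 0 in 8 of the 10 tumours. Of 5 nerve and Schwann cell genes 2 rose and 3 fell, the neurofilament genes Nefm (-1.52 ± 0.26) and Nefl (-1.62 ± 0.30) and Prx (-0.86 ± 0.23). With the muscle covariate 1492 genes rose and 874 fell in all. The T cell receptor list gave 17 rises and MHC class II 10, as without it. Many lists lost calls with the muscle covariate, and only some of those counts are given above. Rises went from 17 to 13 among lysosomal enzymes, from 8 to 5 among monocyte genes and from 10 to 7 among chemokine receptors. They went from 8 to 5 in the list for cDC2 and mature dendritic cells and from 11 to 8 in the TNF and NF-kB list. The part of the mitochondrial share in these differences was not tested.

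The response of the mutant tumours was set against that of the vector tumours in the same fit. The difference between the responses passed for 1308 genes (9.35%), being higher in the mutant for 1035 (7.4%) and lower for 273 (1.95%). By limma no gene passed for anti-PD-1 against PBS in the vector tumours (0 of 13982, with 426 at an unadjusted p under 0.05, and 5 with sample weights), where vector anti-PD-1 tumour 1 also stood apart (mean Spearman correlation 0.873, total FPKM 566913). Of the 15 largest rises in the mutant, 9 differed, among them Ccl5 (difference of log2 changes 4.04 ± 0.61) and Gzmb (3.38 ± 0.84). H2-Aa, H2-Eb1, H2-Ab1 and Cd74, also among the 15, did not pass: H2-Aa rose by 4.34 ± 0.60 in the mutant against 1.98 ± 0.59 in the vector tumours, a difference of 2.36 ± 0.84 (limma adjusted p = 0.0793). In the whole class II list 2 of 10 genes differed, both higher in the mutant, and the median difference was 1.97. A missed threshold does not mean equal responses. Of the 15 largest falls 12 differed, led by Car6 (-3.57 ± 0.62). Picking genes for large changes in the mutant favours such a difference. These counts are therefore a description and cannot be weighed against the 9.35% of all genes.

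By list, the T cell receptor genes differed in 17 of 17 cases, cytotoxic effectors in 13 of 17, macrophage genes in 16 of 23 and type I interferon-stimulated genes in 16 of 25. The filter favours some of these differences. It kept 12 of the 17 T cell receptor genes and 3 of the 17 effectors only through the mutant anti-PD-1 tumours. For the macrophage and type I lists that number was 0. Guanylate-binding proteins differed in 0 of 11 cases, immunity-related GTPases in 0 of 9 and peptide loading genes in 0 of 13, and their median log2 changes in the vector tumours were 0.905, 1.29 and 0.458. Their median differences, mutant minus vector, were 1.15, 0.742 and 0.625, so the lack of calls does not mean that the responses were alike. The count of differing genes was 387 without the 3 least correlated libraries, 152 without anti-PD-1 tumours 1 and 2 alone and 688 to 1878 with 1 mutant tumour left out, with the highest without PBS tumour 3. It was 745, 760 and 816 without PBS tumours 1, 2 and 5, and 782 and 688 without anti-PD-1 tumours 1 and 2.

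**Figure D5:**
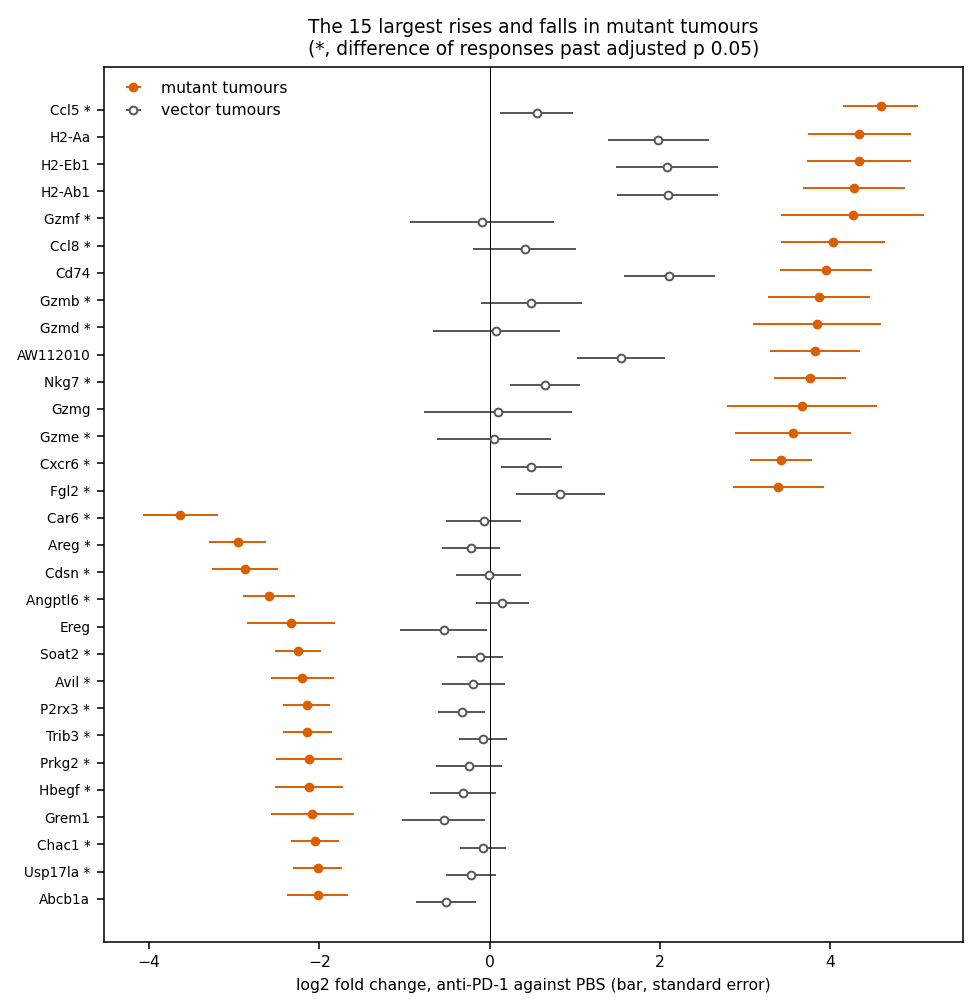
Log2 fold change (anti-PD-1 against PBS) of the 15 largest rises and 15 largest falls in mutant tumours (filled) and of the same genes in vector tumours (open), with standard errors; asterisks mark genes whose difference of responses passed. In the vector tumours the falls lie near 0, and the class II genes lie near 2.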

How the data were processed

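RNA of 20 tumours was sequenced, and gene levels were deposited as FPKM, 1 column per library over 55335 genes. Per the submitters' processing notes the tools were FastQC, STAR 2.5, Cuffnorm and DESeq with mm10, and no role is given for each. Strandedness and depth are not given there, and whole reads could not be recovered from the deposited FPKM (23.6% to 29.6% of low values came out whole within 5%). Overlapping and antisense genes can therefore share reads. Gene names and positions came from GENCODE vM21 (55154 matched), promoters from RefSeq.

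Genes with 1 FPKM in 5 libraries were kept. Values were tested as log2(FPKM + 1) with limma 3.58.1 (R 4.3.3), using an intensity trend, 4 group means and a term for identifier style, with Benjamini-Hochberg adjustment over all 13982 genes at a threshold of 0.05. Log2 changes are fitted values ± SE on that scale, which understates changes of low genes. The fit was tested on simulated data. Library measures were compared with exact two-sided permutation tests. Summaries used Python 3.11.15 with numpy 2.4.6, scipy 1.17.1, pandas 2.3.3 and matplotlib 3.10.9.

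The members and the 79 gene lists were chosen with earlier results of these data known. Genes named are the 15 largest rises and falls (predicted genes, pseudogenes, receptor segments and small RNAs aside) and, per list, up to 4 called members with the smallest p in the leading direction and up to 3 in the other. Cd274, Cd4, Prf1, Ncr1, Nos2, B2m, Psmb5, Fas, Cdkn1a, Atf4, Ddit3, Vcam1 and the genes shown per tumour that this rule did not name were chosen after their values were seen, and uncalled members are given as values only. Alternatives covered filters, pseudocounts, scaling, model terms, weights and libraries left out. A few list members are not reported here by name.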

Additional observations from a re-analysis of the deposited data

Results flagged for a closer look

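Of 72 groups of 5 tumours examined for a value far from the rest, 7 had one, and chance gives about 1 in 20. In PBS tumour 3 Ccl5 was the highest of its group at 21.7 FPKM, and the number of genes at 1 FPKM or more was the highest at 13560. The other 5 lay in anti-PD-1 tumour 1. There Gzmb was the highest at 130 FPKM and H2-D1 the highest at 1311 FPKM, while Ifng was the lowest at 5.1 FPKM, Gbp5 the lowest at 18 FPKM and Krt20 the lowest at 4.16 FPKM.

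Of the 30 largest changes in the mutant tumours, 21 differed from the response of the vector tumours by limma's test of the difference. Over all genes tested 9.35% did. The 30 were picked by the same mutant values, which favours a difference, so the 2 shares cannot be compared as a test. Among the rises, the log2 difference of responses was 4.04 for Ccl5, 4.36 for Gzmf, 3.63 for Ccl8, 3.38 for Gzmb, 3.76 for Gzmd, 3.11 for Nkg7, 3.51 for Gzme, 2.93 for Cxcr6 and 2.56 for Fgl2. Among the falls it was -3.57 for Car6, -2.73 for Areg, -2.86 for Cdsn, -2.73 for Angptl6, -2.14 for Soat2 and -2.01 for Avil. It was -1.81 for P2rx3, -2.07 for Trib3, -1.88 for Prkg2, -1.80 for Hbegf, -1.97 for Chac1 and -1.80 for Usp17la. Hbegf, with an adjusted p of 0.0484, and Prkg2, with 0.0403, were nearest the threshold.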

How the results depend on the processing

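No paired analysis was possible because the replicate numbers only name tumours in deposition order. Genes called, rising, falling and differing from the vector response were 4271, 2226, 2045 and 1308. Without the filter on low values 3832 rose. With 5 FPKM required in 5 libraries, which leaves fewer genes to test, 2742 were called, 1130 rose and 663 differed. Falls numbered 3275 under quantile normalization, 3409 with the mutant libraries alone, 874 with a muscle covariate (2366 called), 1307 within the M style and 3518 with sample weights (6460 called, 3214 differing). Without the 3 least correlated libraries 387 genes differed. In 2 alternatives chosen after seeing the data, 2311 differed when PBS tumour 3 was left out as well, and without anti-PD-1 tumours 1 and 2 alone 1359 were called, 1068 rose, 291 fell and 152 differed. Leaving out each mutant tumour gave 2754 to 4354 called, 1728 to 2337 rising, 1026 to 2093 falling, 688 to 1878 differing and 3275 to 5036 genes whose groups do not overlap, the most without PBS tumour 3. Fewest calls, and fewest falls, came without anti-PD-1 tumour 1. The excess of genes at 1 FPKM or more with anti-PD-1 (736) was 656 to 928 with each left out, and it missed the threshold for every tumour but PBS tumour 3 (exact permutation p = 0.0635 to 0.0794). For all of these changes the cause was not tested. Of 235 genes named above and called, 136 kept direction and call under every alternative that tested them, and 1 reversed: Gch1, with 0.0334 within the number style. Of the uncalled, Cd163 reversed with -0.551 under sample weights, -0.785 within the number style, -1.12 without the 3 libraries, -1.06 and -1.09 in the added alternatives and from -0.0768 to 0.972 with 1 tumour left out. Under the same settings Mrc1 reversed with -0.217, -0.274, -0.33, -0.369 and -0.369, against 0.197 to 0.78 with 1 tumour left out. Arg1 reversed with -0.223, -0.252 and -0.302 in the last 3 and from -0.167 to 0.717 with 1 tumour left out, and S100a8 with -0.143, -0.0201 and -0.127 in the last 3, against 0.557 to 1.97 with 1 tumour left out. Median changes over all genes ran from -0.173 to 0.00289. Depth is unknown, so no value carries a counting interval.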

Other observations

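T cell receptor variable segments gave a view of the infiltrate that the gene lists did not use. Of 22 beta chain variable segments, PBS tumours 1 to 5 held 0, 0, 7, 0 and 0 at 1 FPKM or more, and anti-PD-1 tumours 1 to 5 held 8, 9, 9, 6 and 10. Their summed level was 0.842, 2.48, 24.5, 0.818 and 0.192 FPKM with PBS and 38.6, 48.1, 66.8, 33.7 and 44.6 FPKM with anti-PD-1. The leading segment took 23.6% to 45.1% of the sum in the treated tumours, and it was Trbv17 in tumours 3 and 5, Trbv1 in tumours 2 and 4 and Trbv13-2 in tumour 1. Immunoglobulin kappa variable segments summed to 0.495, 1.82, 25.9, 0.793 and 0.268 FPKM with PBS and to 56, 35.8, 18.5, 14.7 and 12.6 FPKM with anti-PD-1, so PBS tumour 3 was within the treated range. Variable segments of a family can share reads.

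Of 11 ratios between genes of the same tumour, 3 separated the groups: Psmb8 to Psmb5, given above, and 2 of macrophage genes. The ratio of Adgre1 to Csf1r was 0.619 to 1.02 with PBS and 1.33 to 1.93 with anti-PD-1, and C1qa per Adgre1 was 11.6 to 18.3 with PBS and 7.61 to 9.66 with anti-PD-1. The ratios were chosen with earlier results known and not tested. Those of Gzmb, Prf1, Pdcd1 and Ifng to the T cell marker Cd3e overlapped between the groups and rested on a Cd3e level of 0.0946 to 2.89 FPKM in the PBS tumours.

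Calls were spread unevenly over the kinds and places of genes. Processed pseudogenes fell in 196 of 1223 cases (16.0%) and rose in 25 (2.04%), against 14.9% and 17.9% of 11479 protein-coding genes. Among chromosomes, 15 had the largest share of falls, 128 of 556 genes with 12.6% rising, and 6 the largest share of rises, 22.4% of 719 genes. On chromosome 11, 19.5% of 1108 genes rose and 9.93% fell. Whether copy number or the genes' content took part was not tested.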
